A study of Mus musculus with 18 samples.

Results

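Respiratory complex I (NADH:ubiquinone oxidoreductase) was followed through its nuclear genes in single mouse oocytes. Members were the protein-coding genes whose symbol starts with Nduf and continues with a, ab, b, c, s or v and a number, which left out the assembly factors named Ndufaf. The rule found 38 members among 47069 gene identifiers, and 38 of 38 passed the filter on low counts that kept 12161 genes. They were 7 core subunits, 9 accessory subunits of the peripheral arm, 19 of the membrane arm, the acyl carrier protein Ndufab1, and Ndufa4 and its relative Ndufa4l2. The pattern also matched 4 genes that are not protein-coding, among them Ndufb4c and Ndufab1-ps, which were not counted as members. The mouse gene for the NDUFB1 subunit was not analysed here.

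The oocytes came from mice of the strain C57BL/6JAusb and were at the germinal vesicle (GV) stage, arrested in the first meiotic prophase, or at metaphase II (MII), the ripe egg. Young control mice were 4 weeks old and aged control mice 12 months old, and both drank water without additive. Aged NMN mice, also 12 months old, had nicotinamide mononucleotide at 2 g/L in their drinking water for 4 weeks. After 1 duplicate and 1 nearly empty library were set aside, 16 oocytes of 18 deposited libraries were used: 2 GV young controls, 2 GV aged controls, 3 GV aged NMN oocytes and 3 MII oocytes in each of the same 3 groups. Since every library comes from a single oocyte, and no label ties an oocyte to an animal, a group counts as 1 sample, no test between groups is possible, and each comparison is a description of these oocytes. In such data fewer transcripts of a gene in the cell and a smaller share of the library cannot be told apart.

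Complex I takes electrons from NADH, passes them along a flavin and a chain of iron-sulfur clusters to ubiquinone, and pumps protons across the inner mitochondrial membrane. It is L-shaped: the peripheral arm in the matrix holds the NADH-binding N module and the ubiquinone-reducing Q module, and the membrane arm holds the proton pumps, whose core subunits are encoded by mitochondrial DNA. The other core subunits and every accessory subunit are nuclear-encoded, so that 2 genomes have to supply the enzyme. NMN is a precursor of NAD, whose reduced form is the substrate of the complex. Full-grown oocytes make little new RNA, and stored maternal mRNAs are translated or degraded while the oocyte matures from GV to MII.

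The stretches before the start sites of 3 members are shown, chosen by their ratios from GV to MII. Ndufb7 had the lowest and Ndufa10 the highest MII to GV ratio in young controls, and Ndufb4 had the lowest ratio among members holding the core motif of NRF1, nuclear respiratory factor 1, a regulator of respiratory chain genes. The sequences are RefSeq's on GRCm38.p6, 5′ to 3′ on the gene's strand, cut to the bases that no annotated exon covers. Capitals mark a motif match, on either strand. Ndufb7 is shown at chr8:83566508-83566670 (+), Ndufa10 at chr1:92473861-92474008 (-) and Ndufb4 at chr16:37654454-37654618 (-).
Ndufb7: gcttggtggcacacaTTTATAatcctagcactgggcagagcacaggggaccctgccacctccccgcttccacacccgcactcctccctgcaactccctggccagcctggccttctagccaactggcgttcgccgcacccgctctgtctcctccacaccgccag
Ndufa10: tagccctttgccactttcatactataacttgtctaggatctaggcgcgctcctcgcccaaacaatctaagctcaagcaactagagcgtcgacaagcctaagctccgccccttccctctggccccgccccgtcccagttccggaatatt
Ndufb4: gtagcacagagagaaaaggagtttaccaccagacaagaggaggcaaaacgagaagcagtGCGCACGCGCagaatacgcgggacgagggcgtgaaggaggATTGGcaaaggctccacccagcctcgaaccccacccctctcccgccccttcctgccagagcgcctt
In Ndufb7 the capitals are the TATA letters TATAAA read on the opposite strand. In Ndufb4 they are the NRF1 core (GCGC, an A, any base, GCGC) and the CCAAT box read on the opposite strand, while no motif searched lies in the Ndufa10 stretch. Nearer to the start, in bases not printed, Ndufb7 also holds an ETS core and Ndufb4 another pair of NRF1 cores. RefSeq promoters were found for 33 of 38 members, and 5 motifs were searched on both strands in the 250 bases before each start. The NRF1 core was in 6 of the 33 (18.2%), which were Ndufa5, Ndufa8, Ndufa11, Ndufb4, Ndufs5 and Ndufs6, beside 4.23% of 27025 genes. The ETS core CCGGAAG was in 3 (9.09%, beside 7.83%), CCAAT in 10 (30.3%, beside 37.5%), TATAAA in 4 (12.1%, beside 14.3%) and the YY1 core AAGATGGC in none (beside 1.83%). No match overlapped another in the stretches printed, and these counts describe letters, not bound sites.

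Libraries held 2756181 to 5586894 counts. MII aged NMN oocytes 1, 2 and 2-1 had 6444, 5679 and 7725 genes with a count, below the 8539 to 13816 of the other 13 oocytes. Mitochondrial transcripts took 43%, 33.2% and 6.18% of their counts. For the medians of the members and of the mt-Nd genes, values without MII aged NMN 1 and 2 are also given. Ratios, folds and shares of single genes, and the values of other gene lists, mostly include these oocytes. The oocytes fall into batch 1 and batch 2 by their titles. The library counted as GV young control 1 was deposited under 2 titles with identical values, 1 of each batch, and is placed in batch 1 as an assumption. Of its genes with a count 14.5% had an expected count that was not whole (by more than 0.005), beside 11.9 to 14.6% in the batch 2 libraries and 19.5 to 29.0% in the other batch 1 libraries, so values within a batch that use it may cross batches. All oocyte markers on a list of 17 (Gdf9, Bmp15, zona and maternal effect genes) had a count in at least 10 of the 16 oocytes, and their summed level was 10540 to 44294 scaled CPM. MII aged NMN 1, 2 and 2-1 had a count for 10, 12 and 15 of these markers, and the other 13 oocytes for 16 or 17. A list of 17 cumulus and granulosa cell markers summed to 306 CPM at most, with Amh, Amhr2 and Foxl2 at 0 in each oocyte. Others on this list were seen more often: Nr5a2 had a count in 15 oocytes and Cyp19a1 in 13. The highest sum was that of MII young control 2-1, where 12 of the 17 had a count and Gja1 stood at 182 CPM. Of the members 17 share exon bases with another annotated gene, mostly on the opposite strand. Reads there could have been counted for either, except for Ndufb9, whose overlapping gene model Gm49356 is not among the identifiers counted. The case with the most reads in the other gene is Ndufb5, which shares 12.3% of its exon bases with Mrpl47.

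Summed over the 38 members, complex I transcripts took a smaller share of the library in MII than in GV oocytes in each group. Values below are scaled CPM, the share of a library's counts after scaling between libraries, unless TPM or pooled counts are named. TPM also corrects for transcript length, and CPM from pooled counts is taken over library totals without that scaling. The sum in GV oocytes was 17824 and 11958 in young controls, 7704 and 11205 in aged controls and 9049, 7570.1 and 16934 in aged NMN oocytes. In MII oocytes it was 4904, 1723 and 1019 in young controls, 1887, 2005 and 5437 in aged controls and 727, 1099 and 6343 in aged NMN oocytes. By this measure the highest MII oocyte, aged NMN 2-1, lay below the lowest GV oocyte, aged NMN 2. By summed TPM the stages overlapped: MII aged NMN 2-1, at 16948 TPM, was above GV aged NMN 2, GV aged NMN 1 and GV aged control 1, at 15430, 16365 and 16454 TPM, while the other 8 MII oocytes were below every GV oocyte. Of these 16948 TPM, 3358 came from Ndufa4, now placed in complex IV. In GV aged NMN and GV aged control oocytes Ndufa4 gave at most 1230 and 1342 TPM. Without Ndufa4 in the sum, MII aged NMN 2-1 would lie below every GV oocyte. Within MII the NMN oocytes held both the lowest values and the highest. A count was seen for 36 to 38 members in every GV oocyte. In MII oocytes it was seen for 34, 37 and 38 in young controls, 31, 34 and 34 in aged controls and 20, 14 and 30 in aged NMN oocytes. Of the 38 members 12 had a count in all 9 MII oocytes, and 2, Ndufv1 and Ndufa4l2, in only 2 of them. Another 7 members had a count in 8 MII oocytes and 9 in 7. All of these except Ndufs6 had a count in every MII control oocyte and lacked it only in aged NMN oocytes.

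**Figure D1:**
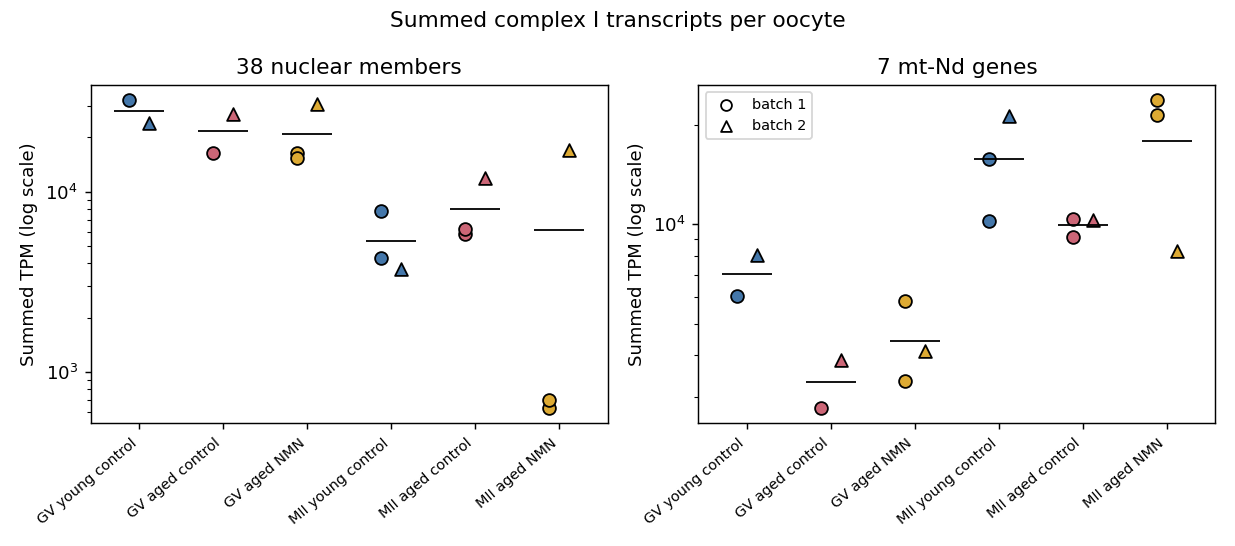
Summed TPM (log axis) of the 38 nuclear members (left) and of the 7 mitochondrially encoded mt-Nd genes (right) in each of 16 oocytes by group; circles are batch 1, triangles batch 2 and lines group means. The nuclear sum runs from 15430 to 32115 TPM in GV and from 632 to 16948 TPM in MII oocytes, with MII aged NMN 1 and 2 lowest and MII aged NMN 2-1 above 3 GV oocytes. That overlap depends on counting Ndufa4, now placed in complex IV, among the members. The mt-Nd sum of 8078 TPM or less in GV oocytes is passed by all 9 MII oocytes by TPM, though not by scaled CPM.

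Between members the levels differed widely. By TPM, averaged over the 16 oocytes, the highest were Ndufa1 (1932 TPM), a small single-helix subunit encoded on the X chromosome, Ndufab1 (1686 TPM) and Ndufa4 (1157 TPM). The lowest were Ndufa4l2 (1.65 TPM), Ndufs1 (3.82 TPM) and Ndufv1 (25.6 TPM). Ndufs1 and Ndufv1 encode core subunits of the N module, and each is built into every complex. The longest coding sequence among the members, 2181 bases, is that of Ndufs1, and the shortest, 210 bases, that of Ndufa1. The 4 highest members of each oocyte, which were not the same 4 in all oocytes, took 31.0 to 42.3% of the summed TPM in GV oocytes and 52.6 to 79.6% in MII oocytes.

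**Figure D2:**
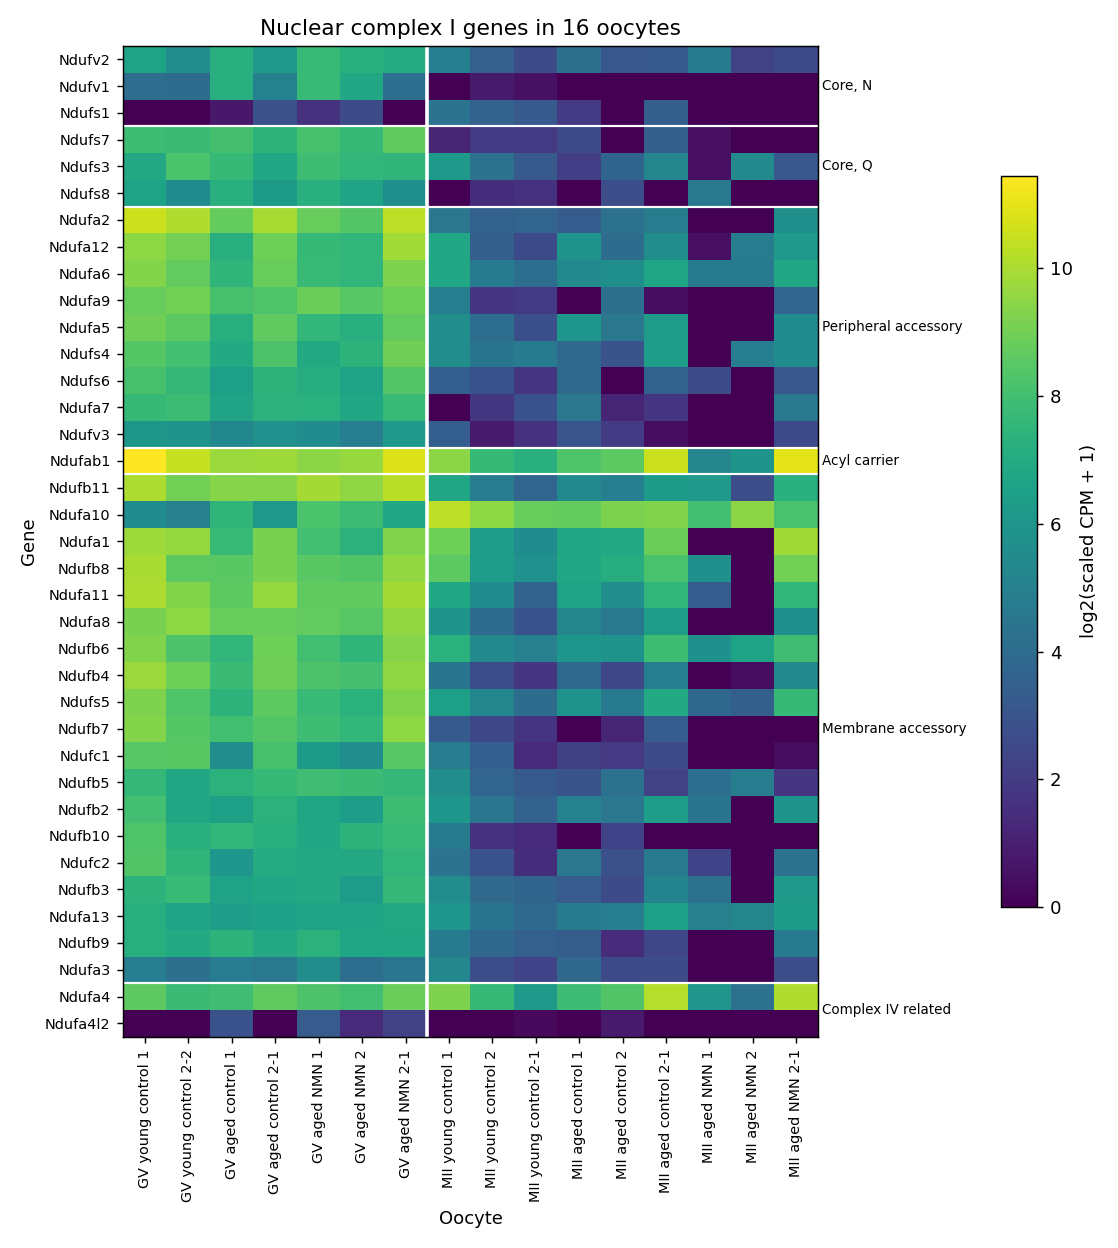
Level of 37 of the 38 members (rows, grouped by their place in the complex) in each of 16 oocytes (columns) as log2(scaled CPM + 1); the white vertical line parts GV from MII oocytes. Most rows are lighter on the GV side, Ndufa10 is lighter on the MII side, Ndufa4 and Ndufab1 are light in most oocytes of both stages and darkest in MII aged NMN 1 and 2, and Ndufs1 and Ndufa4l2 are dark throughout.

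From GV to MII in young controls, 33 of 38 members were at least 2-fold lower and 2 at least 2-fold higher. The median log2 ratio of the members, MII over GV group means with 1 CPM added, was -3.45, beside 0.35 for all 12161 genes. Of all genes 25.8% were at least 2-fold lower and 36.3% at least 2-fold higher. For 32 members every MII oocyte lay below every GV oocyte, beside 16.3% of all genes. In aged controls 32 members were at least 2-fold lower (35.9% of all genes) and 1 higher (16.9%; 3 without GV aged control 2-1, 2 without MII aged control 1 or 2), with a median of -3.0 beside -0.29. There every MII oocyte lay below every GV oocyte for 30 members (27.4%). In aged NMN oocytes 34 were lower (46.7%) and none higher (16.9%; 1 without GV NMN 1, GV NMN 2, MII NMN 1 or MII NMN 2-1), with a median of -3.67 beside -0.82, and 30 did not overlap in that direction (27.2%). Within batches the members' median was -3.24 and -4.28 in young controls, -3.20 and -2.41 in aged controls, and -4.76 and -3.20 in aged NMN oocytes, for batch 1 and batch 2. With GV young control 1 placed in batch 2, the young value there was -4.55. Without MII aged NMN 1 and 2 the NMN median was -2.63 and 29 members were lower. Leaving out any other oocyte kept the medians of the 3 groups at -2.69 or below. Per the labels the lysate was spun to remove the nucleus and only its upper part was used, and a GV oocyte has a nucleus that an MII oocyte lacks, so the 2 stages may not hold the same fraction of the cell; its part in these ratios was not tested.

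**Figure D3:**
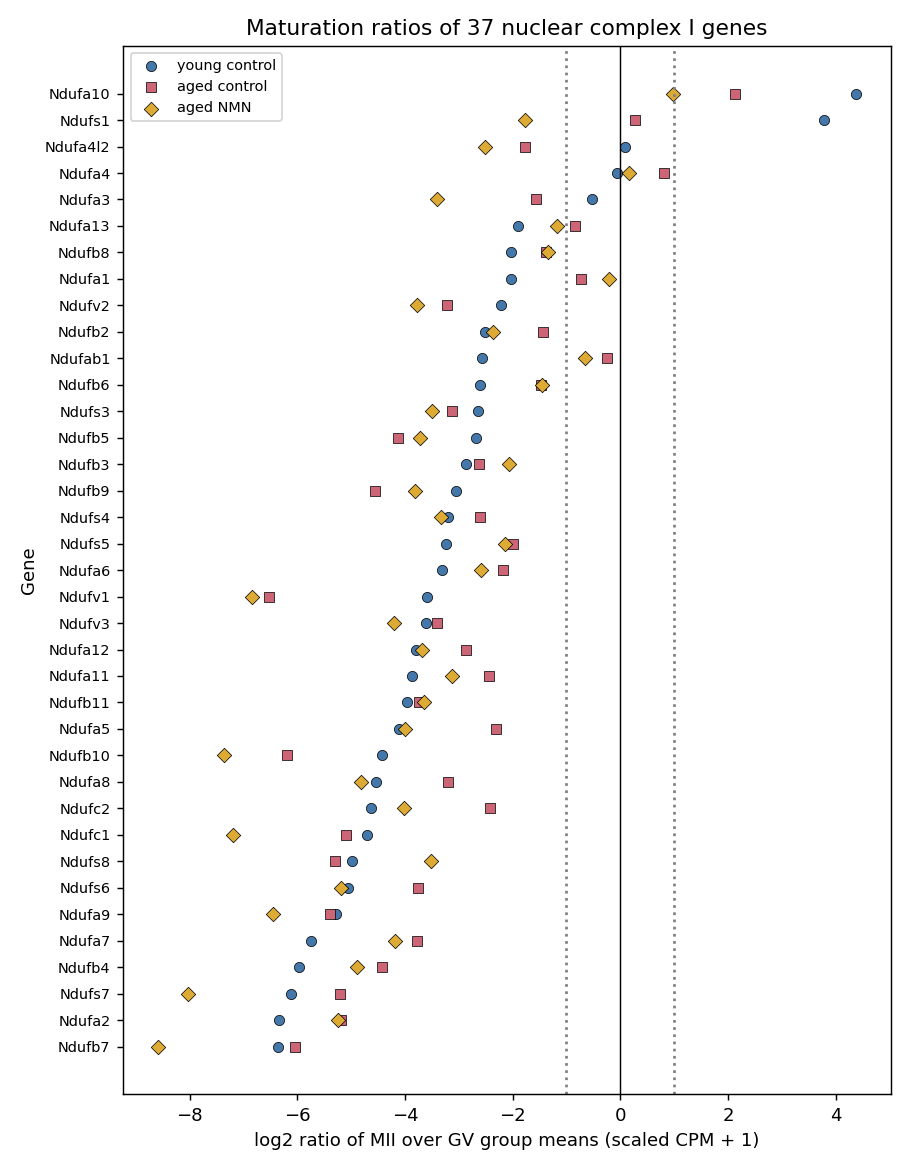
Log2 ratio of MII over GV group means (scaled CPM + 1) for 37 of the 38 members, ordered by the young control value; circles are young controls, squares aged controls, diamonds aged NMN oocytes, and dotted lines mark a 2-fold difference. Most points lie left of the lower dotted line, while Ndufa10 (4.37, 2.12 and 0.97) stands right of 0 in the 3 groups and Ndufs1 (3.78, 0.27 and -1.77) differs between them.

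Ndufs7, Ndufs8 and Ndufs3, core subunits of the Q module, which carries electrons to ubiquinone, were lower in MII oocytes in each group. Ndufs7, which holds the last iron-sulfur cluster of the chain, was at 235 and 225 in young controls, 271 and 168 in aged controls and 273, 206 and 404 in aged NMN oocytes at the GV stage. By MII it was at 1.26, 2.8 and 2.89 in young controls, 4.75, 0 and 10.2 in aged controls and 0.395, 0 and 0 in aged NMN oocytes. No MII oocyte came near a GV oocyte, and Ndufs7 was 99.1-fold lower in young and 44.2-fold lower in aged controls. In aged NMN oocytes 1 count was left at MII, 0.0896 CPM (95% interval 0.00227 to 0.499) from pooled counts, after 271 CPM (95% interval 261 to 281) at GV. These exact Poisson intervals cover counting error only. Ndufs8, which carries the iron-sulfur clusters that pass electrons to that of Ndufs7, had log2 ratios of -4.99, -5.31 and -3.52 in young controls, aged controls and aged NMN oocytes. Its MII oocytes had counts in 4 of 9, with 24.1, 0 and 0 CPM in the NMN oocytes. Ndufs3, a Q-module subunit without a cluster, had the ratios nearest 0 of these 3: its log2 ratios were -2.65, -3.13 and -3.51, and each of the 9 MII oocytes had a count.

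The 3 core subunits of the N module did not share a pattern. Ndufv1, which binds NADH and the flavin, was at 16 and 15.7 in young controls, 150.3 and 32.2 in aged controls and 214, 112 and 17.3 in aged NMN oocytes at GV. It was at 0 in 7 of 9 MII oocytes and at 0.778 and 0.413 CPM in young controls 2 and 2-1. Against a limit of 3 counts over the group, Ndufv1 was at least 378-fold lower in aged controls and at least 341-fold lower in aged NMN oocytes. In young controls, where 7 counts were left, it was 39.8-fold lower. Ndufv2, its iron-sulfur partner, was lower in every MII oocyte than in any GV oocyte of its group, with log2 ratios of -2.21, -3.22 and -3.78. Ndufs1, which carries further clusters of the chain, was low throughout. It was at 0 and 0 in young controls, 0.701 and 6.14 in aged controls and 2.06, 5.16 and 0 in aged NMN oocytes at GV, and at 19.2, 11 and 8.06 in young controls, 2.82, 0 and 10.2 in aged controls and 0, 0 and 0 in aged NMN oocytes at MII. The 3 young MII oocytes were above both young GV oocytes, which had no count, at least 32.9-fold higher against 3 counts, while in aged controls the stages overlapped and the 3 MII NMN oocytes had none. Exon bases of Ndufs1 are shared with Ino80dos and Eef1b2 on the opposite strand, and its 303 counts over all oocytes are fewer than the 375 of Ino80dos. Strand-specific counting is not stated in the sources used here, so reads there cannot be assigned with certainty.

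All 9 accessory subunits of the peripheral arm were at least 2-fold lower at MII in each of the 3 groups (25.8%, 35.9% and 46.7% of all genes). For each of them no MII oocyte reached a GV oocyte of its group (16.3%, 27.4% and 27.2% of all genes). Their log2 ratios were -6.35 to -3.21 in young controls, -5.39 to -2.17 in aged controls and -6.45 to -2.58 in aged NMN oocytes. Ndufa2, a small subunit with a thioredoxin-like fold, had the lowest value in young controls. It was at 1542 and 1079.5 in young controls, 424 and 982 in aged controls and 448, 336 and 1261 in aged NMN oocytes at GV. MII oocytes held 22.6, 10.6 and 12.2 in young controls, 9.15, 18.3 and 27.2 in aged controls and 0, 0 and 51.2 in aged NMN oocytes, an 86.7-fold lower mean in young controls. GV oocytes thus held 336 CPM or more and MII oocytes 51.2 CPM or less. Ndufa9, which sits beside the ubiquinone site, was at log2 ratios of -5.29, -5.39 and -6.45. Mutations of NDUFS4 and NDUFS6 cause complex I deficiency in people. In these oocytes Ndufs4 was at -3.21, -2.61 and -3.33, and Ndufs6, another holder of the NRF1 core, at -5.06, -3.75 and -5.19.

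Of the 19 accessory subunits of the membrane arm, 17, 16 and 17 were at least 2-fold lower at MII in young controls, aged controls and aged NMN oocytes (25.8%, 35.9% and 46.7% of all genes). Ndufb7, which faces the intermembrane space, was at 643 and 345 in young controls, 253 and 330.5 in aged controls and 234, 192 and 723 in aged NMN oocytes at GV. In the MII oocytes the level was 8.37, 4.51 and 2.27 in young controls, 0, 1.25 and 9.08 in aged controls and 0, 0 and 0 in aged NMN oocytes. It was 97.8-fold lower in young and 84.8-fold lower in aged controls, and at least 1145-fold lower in aged NMN oocytes, which had no count. Pooled counts gave 484 CPM (95% interval 469 to 499.6) at GV and 5.27 CPM (95% interval 4.18 to 6.56) at MII in young controls. Ndufb10, which also faces that space, was at 315 and 151 in young controls, 193 and 149 in aged controls and 116, 169 and 207 in aged NMN oocytes at GV. After maturation it stood at 25.7, 2.18 and 1.65 in young controls, 0, 4.0 and 0 in aged controls and 0, 0 and 0 in aged NMN oocytes, with a count in only 4 of 9 oocytes. Its mean was 128-fold lower in aged controls and at least 490.4-fold lower in aged NMN oocytes. Ndufb4, printed above with its NRF1 core, was at 666 ± 247 CPM (SD between oocytes, n = 2) at GV and 9.68 ± 10 CPM (SD between oocytes, n = 3) at MII in young controls. Its processed pseudogene Ndufb4c followed it with 182 to 633 CPM before and 0 to 34.1 CPM after maturation, and the files' counting may have split reads between the pair.

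Ndufa10, a membrane-arm subunit on the matrix side with a nucleoside kinase-like fold, went the other way. It was at 46.3 and 30.8 in young controls, 181 and 67.5 in aged controls and 291, 230.5 and 115 in aged NMN oocytes at GV. MII oocytes were at 1280.2, 734 and 442 in young controls, 432, 588 and 613 in aged controls and 258, 711 and 282 in aged NMN oocytes. Every MII oocyte was above every GV oocyte in young and in aged controls, while in aged NMN oocytes the stages overlapped. The mean was 21.2-fold higher in young and 4.38-fold higher in aged controls. Pooled counts gave 37.7 CPM (95% interval 33.6 to 42.3) at GV and 854 CPM (95% interval 839.8 to 869) at MII in young controls. Ndufa10 made up 0.0895 to 1.39% of the summed members' TPM in GV oocytes and 1.15 to 43.2% in MII oocytes. By TPM it was at 26.4 ± 3.33 TPM at GV and 820.4 ± 56.5 TPM at MII in young controls. No exon base of Ndufa10 is shared with another annotated gene.

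**Figure D4:**
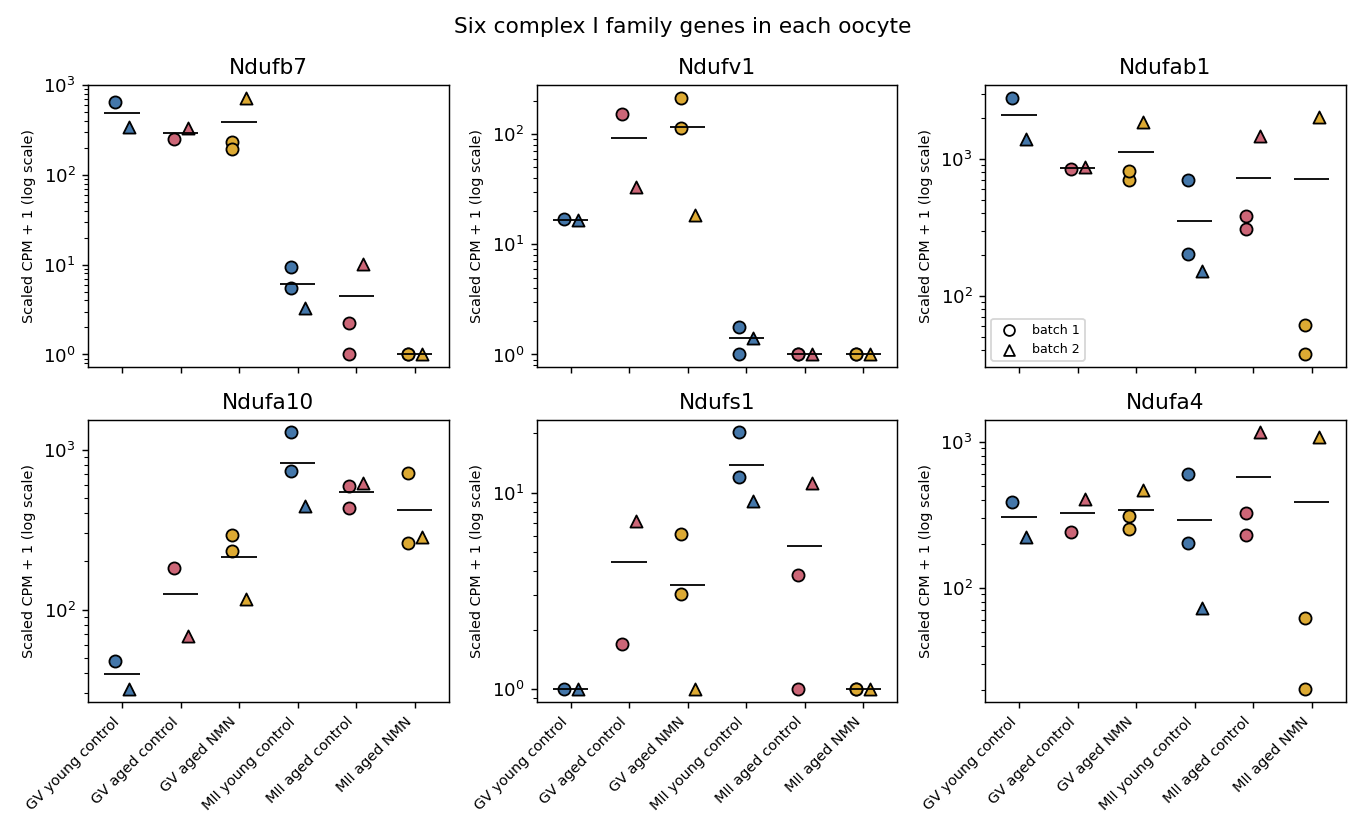
Scaled CPM + 1 (log axis) of 6 members in each of 16 oocytes by group; circles are batch 1, triangles batch 2 and lines group means. Ndufb7 and Ndufv1 are high in GV and near the floor in MII oocytes, Ndufa10 is higher in MII than in GV control oocytes, and Ndufab1 and Ndufa4 spread most among MII aged NMN oocytes, where oocytes 1 and 2 are lowest.

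A few abundant members differed less between the stages. Ndufab1, the mitochondrial acyl carrier protein, which also serves lipoic acid synthesis, was at 2798 and 1402 in young controls, 849 and 866 in aged controls and 702, 812 and 1860.5 in aged NMN oocytes at GV. At the MII stage the values were 707, 203 and 151 in young controls, 309, 382 and 1475 in aged controls and 36.3, 60.2 and 2040.1 in aged NMN oocytes. Its log2 ratio was -2.57 in young controls without overlap, and -0.25 and -0.66 in aged controls and aged NMN oocytes, where MII oocyte 2-1 was above every GV oocyte of its group. Ndufa1 was also furthest from 0 in young controls, with log2 ratios of -2.03, -0.73 and -0.21, and was at 0, 0 and 897 CPM in the 3 MII NMN oocytes. The negative NMN ratios of Ndufab1 and Ndufa1 rest on MII NMN 1 and 2. MII NMN 2-1 was above the GV NMN means of 1125 and 346 CPM for these genes. Ndufa4, once counted in complex I and now placed in cytochrome c oxidase (complex IV), was at 384 and 223 in young controls, 241 and 408 in aged controls and 308, 251 and 466 in aged NMN oocytes at GV. The level at MII was 599, 203 and 71.9 in young controls, 231, 324 and 1159 in aged controls and 61.2, 19.2 and 1070.2 in aged NMN oocytes. The stages overlapped in each group, with log2 ratios of -0.06, 0.81 and 0.17. Its relative Ndufa4l2 had at most 8.69 CPM in any oocyte. Ndufa4 and Ndufa4l2 thus made up 2 of the members that were not 2-fold lower in young controls, beside Ndufa10, Ndufs1 and Ndufa3. Ndufa3, a small membrane-arm subunit, was at -0.53 in young controls, -1.57 in aged controls and -3.40 in aged NMN oocytes.

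The 7 mitochondrially encoded core subunits, mt-Nd1 to mt-Nd6 with mt-Nd4l, had median log2 ratios of 0.92, 1.28 and 2.41 from GV to MII in young controls, aged controls and aged NMN oocytes. At least 2-fold higher were 3, 6 and 7 of them, beside 36.3%, 16.9% and 16.9% of all genes, and none was 2-fold lower. The NMN values rest on MII NMN 1 and 2: without them the median was 0.81 with 2 genes higher. In batch 2 alone the medians were 0 in young controls and 0.05 in aged NMN oocytes. The young median of 0 there is the value of mt-Nd4l, which had no count in either oocyte. Of the others, mt-Nd1, mt-Nd3 and mt-Nd4 were higher at MII, and mt-Nd2, mt-Nd5 and mt-Nd6 lower. Summed over the 7 genes, MII young control 2, at 6333 CPM, was below both young GV oocytes, at 6834 and 8516 CPM, so that by CPM the stages overlapped in young controls. mt-Nd1, which lies where the arms meet, was at 1013 and 2109 in young controls, 951 and 842 in aged controls and 2371, 1220.4 and 1038 in aged NMN oocytes at GV. MII levels were 5614, 2525 and 3769.8 in young controls, 1733, 2094 and 2198 in aged controls and 9826, 12836 and 930.3 in aged NMN oocytes, with NMN oocytes 1 and 2 far above the rest. NMN 2-1 was below the 3 GV NMN oocytes, though within the range of all GV oocytes. mt-Nd4, a proton pump, had log2 ratios of 0.92, 1.28 and 3.15, the last of which was 0.32 without MII NMN 1 and 2. mt-Nd4l was at 0 in all 7 GV oocytes and at 25.3 CPM or less in MII oocytes. Its gene overlaps mt-Nd4, and the part of this overlap in its values was not tested. Summed TPM of the 38 nuclear members over summed TPM of the mt-Nd genes was 5.29 and 2.98 in young controls, 5.94 and 6.98 in aged controls and 2.8, 4.62 and 7.4 in aged NMN oocytes at GV. At MII it was 0.495, 0.418 and 0.175 in young controls, 0.559, 0.677 and 1.15 in aged controls and 0.0295, 0.0295 and 2.04 in aged NMN oocytes. No MII oocyte reached the lowest GV oocyte, and the MII NMN oocytes held both the lowest ratios and the highest of that stage.

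Other gene lists put the members' ratios in context. Nuclear genes of complexes III to V (43 genes) had medians of -2.54, -2.05 and -2.37 from GV to MII in the 3 groups, and cytosolic ribosomal proteins (84 genes) -3.41, -3.22 and -3.84. Genes of these other lists were thus also lower in MII oocytes. Of 15 complex I assembly factors 5, 11 and 12 were at least 2-fold lower, beside 25.8%, 35.9% and 46.7% of all genes, and none higher. Tmem126b, a factor of the membrane arm, was at 127 and 254 CPM in young GV oocytes and at 0 in the 3 young MII oocytes. Ndufaf3, a factor of the Q module, was at 165 and 10.2 CPM and at 0, and Ndufaf4, its partner, at 1498 and 1471 CPM at GV and 1923, 562 and 180.0 CPM at MII. So Ndufaf3 had no count in young MII oocytes while Ndufaf4 overlapped between stages. Of the 4 genes of complex II (succinate dehydrogenase), Sdhb had log2 ratios of -5.72, -4.26 and -4.45, and Sdhc 3.16, -0.24 and -3.01.

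**Figure D5:**
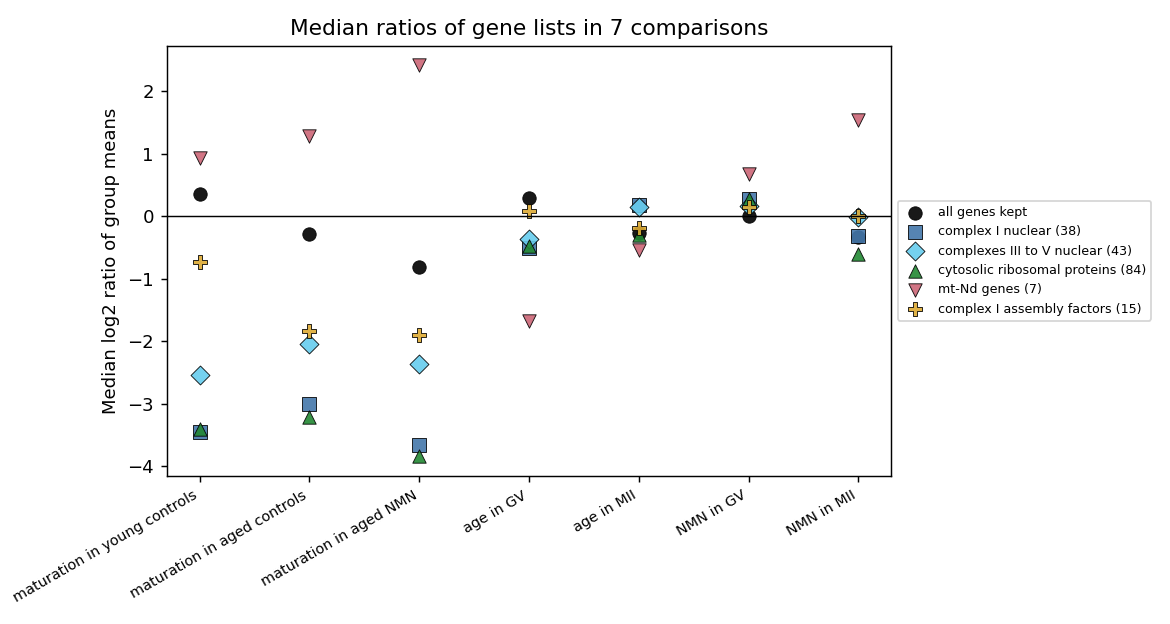
Median log2 ratio of group means (y axis) in each of 7 comparisons (x axis) for all genes kept, the 38 members and 4 other gene lists, with the number of genes in brackets. In the 3 maturation comparisons the members (-3.45, -3.0 and -3.67) lie near the ribosomal proteins and below complexes III to V, with mt-Nd genes above all other lists, while in the age and NMN comparisons the members lie between -0.51 and 0.27.

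Differences with age at the GV stage were smaller than those with maturation. Of the 38 members 5 were at least 2-fold lower in aged than in young control GV oocytes (12.2% of all genes) and 4 at least 2-fold higher (31.1%), with a median of -0.51 beside 0.29 for all genes. Among the 4 higher, Ndufs1 and Ndufa4l2 reached at most 6.14 and 6.49 CPM in aged controls and had no count in young controls. Scaled by library totals alone the split was 2 lower and 4 higher. In batch 1 alone, 1 young and 1 aged oocyte, 18 were lower, against 2 in batch 2, and the medians were -0.82 and -0.01. That young oocyte is the library deposited under both batches. With it placed in batch 2, batch 1 has no young GV oocyte, and 1 member was lower and 1 higher in batch 2, with a median of -0.28. Without GV young control 1, GV young control 2-2, GV aged control 1 and GV aged control 2-1 in turn, 2, 13, 1 and 16 members were at least 2-fold lower and 6, 4, 1 and 5 higher, so these counts rest on single oocytes. For 14 members both aged oocytes lay below both young oocytes, beside 1306 of all 12161 genes. For 3 members both lay above, beside 2863 of all genes. Ndufc2, a membrane-arm subunit, was at 326 and 181 CPM in young and 64.5 and 129.9 CPM in aged controls. Ndufc1, its neighbour in the complex, was at 353 and 372 CPM and 47.7 and 277 CPM. Both were below in each aged oocyte, but aged control 2-1 was nearer to the young oocytes than to aged control 1 for Ndufc1. Ndufab1 was 2.45-fold lower, at 2100.1 ± 987 CPM in young and 857 ± 12.5 CPM in aged controls (SD between oocytes, n = 2 each). Ndufv1 and Ndufa10 were 5.77-fold and 3.22-fold higher in aged controls by CPM, and 2.03-fold and 1.75-fold higher without aged control 1. By TPM Ndufv1 was 1.97-fold higher with overlap between the groups, and Ndufa10 3.85-fold higher without. For Ndufv1 the GV oocytes of the 2 aged groups split by batch: 150, 214 and 112 CPM in batch 1 against 32.2 and 17.3 CPM in batch 2, while the young oocytes, 1 of uncertain batch and 1 of batch 2, had 16 and 15.7 CPM. If both young oocytes came from batch 2, the effects of age and of batch on the values of aged control 1 cannot be told apart. The same 3 oocytes had 181, 291 and 231 CPM of Ndufa10 against 67.5 and 115 CPM. They also had a summed level of 10 immune cell markers of 237, 101 and 175 CPM against 8.87 to 21.9 CPM in the other 4 GV oocytes, of which C1qb gave 227 CPM in aged control 1, with Ptprc, C1qa, Cd74, Tyrobp and Cd3e at 0 in all oocytes. They had 13253 to 13816 genes with a count, more than the 8825 to 11736 of the other 4. The part of these measures in the Ndufv1 and Ndufa10 values was not tested. The mt-Nd genes had a median of -1.68, with 5 of 7 at least 2-fold lower.

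At MII, aged controls differed from young controls by a median of 0.17 over the members, beside -0.27 for all genes. At least 2-fold lower were 5 members (22.6% of all genes) and higher 3 (8.45%). With median-of-ratios size factors the split was 5 and 5, and with library totals 4 and 6. The medians within batches had opposite signs, -0.61 in batch 1 and 1.68 in batch 2, where 1 aged oocyte stood against 1 young oocyte. Without MII young control 1 the median was 0.83 with 1 member lower and 16 higher. Without MII aged control 2-1 it was -0.24 with 9 lower and 1 higher. Without young control 2 or 2-1 it was -0.13 and -0.16, with 8 and 9 lower and 1 higher each, and without aged control 2 there were 9 higher, so no direction held for the group. Ndufb9, which pairs with Ndufab1 in the membrane arm, was at 24.3, 13.2 and 10.3 CPM in young and 9.5, 1.75 and 4.36 CPM in aged controls. It was the only member whose aged oocytes were all below the young ones (6.16% of all genes), 3.06-fold lower in the mean. Exon bases of Ndufb9 are shared with an overlapping gene model on the same strand, Gm49356, which is not among the identifiers counted.

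NMN was compared with water in aged mice, with the aged controls of the age comparison. At the GV stage no member was 2-fold lower (12.3% of all genes) or 2-fold higher (8.54%), and the median was 0.27 beside 0.01. Ndufa9 was at 274 and 316 CPM in aged controls and 477, 355 and 488 CPM in NMN oocytes. Ndufb11, an X-linked membrane-arm subunit, was at 665 and 667 CPM and 966, 752 and 1218 CPM. Ndufa13, which lies at the joint of the arms, was at 82.2 and 91.8 CPM and 99.4, 102 and 121 CPM. In these 3 members alone the NMN oocytes were all above both aged controls (5.68% of all genes), by 1.49-fold, 1.47-fold and 1.24-fold in the mean. By TPM the groups overlapped for Ndufa13, and Ndufa9 and Ndufb11 were 1.26-fold and 1.23-fold higher. Within batches the members' median was 0.18 in batch 1 and 0.49 in batch 2. Without GV aged NMN 2-1 it was -0.16 with 1 member lower and 1 higher, and without GV aged control 1 or 2-1 there were 5 and 6 members at least 2-fold higher. Leaving out GV aged control 1 or NMN 2 also gave 1 member lower.

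At MII 10 members were at least 2-fold lower in NMN oocytes than in aged controls (33.1% of all genes) and 1 at least 2-fold higher (14.7%), with a median of -0.31 beside -0.33. The spread within the NMN group exceeded the difference between groups: the summed level was 727, 1099 and 6343 CPM in NMN oocytes and 1887, 2005 and 5437 CPM in aged controls. In batch 1 alone 23 members were lower with a median of -1.41, and in batch 2 the median was 0.00 with 7 members lower and 6 higher. Without NMN 2-1 27 members were lower and 2 higher, with a median of -2.17. The higher members numbered 3, 3 and 8 without aged control 1, 2 and 2-1, and 2 and 4 without NMN 1 and 2. Without NMN 1 and 2 together, which had the fewest genes with a count, the median was 0.39, with 10 members lower and 11 higher in the oocyte left. Ndufs8 was the member above 2-fold, at 0, 5.75 and 0 CPM in aged controls and 24.1, 0 and 0 CPM in NMN oocytes, so that 1 oocyte carried it, and its log2 ratio of 1.63 became -1.54 without NMN 1 and 2 and -1.56 without NMN 1 alone. Ndufc1, at 3.52, 2.75 and 5.08 CPM and 0, 0 and 0.312 CPM, was the only member with each NMN oocyte below each control (11.8% of all genes), at values near the floor. The mt-Nd genes had a median of 1.54, with 6 of 7 at least 2-fold higher and none without overlap. With library totals 3 were higher and by TPM 2. Without NMN 1 and 2 the median was -0.17, with none higher and 1 lower.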

How the data were processed

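The authors' deposited tables, per the file headers, give each gene an expected count with no normalisation and a TPM, scaled by the authors for effective length and library. The column names are those of RSEM, but the submitters' processing notes list TopHat2 2.1.1 and Cufflinks as well as FastQC 0.11.8 and Trim Galore 0.4.5, with the builds mm10 and GRCm38, and which step made the tables, and whether strand was used, are not given in the sources used here. FPKM was not used. Symbols came from GENCODE vM21, found for 46574 of 47069 identifiers.

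Expected counts were rounded, filtered by filterByExpr (minimum count 10) and scaled to CPM with TMM factors (edgeR 4.0.16, R 4.3.3). Libraries of 100000 counts or fewer were set aside. GV young control 1 and 2-1 were identical and counted once. GV aged control 2-2 held 5009 counts, 61 of them in complex I, from Ndufc1 and Ndufv2 only. The title of MII aged NMN 2 says batch 2 with no further number and was read as oocyte 2 of batch 1. Groups are given as oocyte values, mean ± SD between oocytes, and log2 ratios of means with 1 CPM added; folds are ratios of mean scaled CPM, as a limit against 3 counts where a group had none. Pooled counts over pooled totals have exact 95% Poisson intervals. The ratio calculation was tested on simulated data. No test between groups was made, since no animal is named.

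The members and lists were chosen with earlier results of these data known. Named were the 7 core subunits, of which 1 is not reported here; per comparison up to 3 members per direction with the largest ratio among those at 10 CPM or more in the higher group and without overlap between groups; the 3 highest and 3 lowest by TPM; and by the same rule examples from 15 assembly factors, complex II and the mt-Nd genes. Ndufb4, Ndufa3, Ndufs4, Ndufs6, Ndufc1 at MII, Ndufaf4 and the sequence of Ndufb4 were chosen after their values were seen. Alternatives were other scalings, no filter, 0.1 or 5 CPM added, TPM, the set-aside libraries, single batches and each oocyte left out.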

Additional observations from a re-analysis of the deposited data

How the results depend on the processing

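The maturation medians of the members stayed negative under every alternative run, from -5.17 to -2.41, and the counts of lower members stayed within 1.5 times. The age and NMN counts moved. Members at least 2-fold lower with age in GV (5) became 2 with library totals, 1 with TPM, 23 with the nearly empty library kept (median -1.09), 18 in batch 1, 2 in batch 2 (median -0.0094) and 1 with the duplicate library in batch 2, a choice made after seeing the data; those higher (4) became 2 with 5 CPM added, 2 in batch 2 and 1 with that placing. With age in MII, members higher (3) became 5 with median-of-ratios factors or 0.1 CPM added, 6 with library totals and 25 in batch 2 (median 1.68), and members lower (5) became 3 with 5 CPM added and 12 in batch 1. With NMN in GV (none), the kept library gave 1 lower and 8 higher (median 0.84), batch 1 gave 1 higher, and batch 2 gave 1 lower and 5 higher. With NMN in MII, lower members (10) became 2 with 5 CPM added and 23 in batch 1 under either reading of the title; higher members (1) became 0 with 5 CPM added or TPM, 2 in batch 1 under either reading, 6 in batch 2 (5 by the literal title) and 11 without MII NMN 1 and 2, also chosen after seeing the data. Members higher at MII became 2 in aged controls with the kept library or in batch 2, and in aged NMN 2 in batch 2, 1 by the literal title and 2 without MII NMN 1 and 2. Reversed were the mt-Nd median with NMN in MII in batch 2 (-0.35) and without MII NMN 1 and 2 (-0.17), Ndufs1 with age in MII in batch 2 (0.30) and Ndufs8 with NMN in MII without MII NMN 1 and 2 (-1.54). Leaving out 1 oocyte gave ranges of 1 to 16 lower and 1 to 6 higher for age in GV, 1 to 9 and 1 to 16 for age in MII, 0 to 1 and 0 to 6 for NMN in GV, and 7 to 27 and 2 to 8 for NMN in MII. It gave 1 to 3 higher at maturation in aged controls, 0 to 1 in aged NMN oocytes, and -1.56 to 3.16 for Ndufs8 with NMN in MII. The cause of these moves was not tested, beyond fewer oocytes in batches and left-out sets. Library totals moved the median of all genes from -0.33 to -0.64 and that of the members from -0.31 to -0.58 for NMN in MII, from 0.29 to 0.46 and from -0.51 to -0.30 for age in GV, and from 0.01 to -0.18 and from 0.27 to 0.02 for NMN in GV. No paired analysis was possible because there is no test between groups and the number in a title names an oocyte. Both the number of oocytes and depth limit these values, and intervals cover counting error only.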
